A study of Mus musculus with 20 samples.

Results

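Immunoglobulin genes and genes of antibody-secreting cells were followed in uterine RNA of 20 female B6D2F1 mice, with 5 mice in each of 4 groups. Genes were taken by symbol: the variable segments of the heavy chain (Ighv), the kappa chain (Igkv) and the lambda chain (Iglv), the constant region genes of the heavy chains and of both light chains, and Jchain, Mzb1 and Tnfrsf17. Of 364 symbols of this kind, the 183 listed above 0 TPM (transcript abundance scaled to a fixed library total) in at least 10 of the 20 libraries were kept, out of 45777 genes listed in all. They comprised 91 Ighv, 75 Igkv and 3 Iglv segments, 11 constant region genes and the 3 plasma cell genes, and all 183 have a position in the RefSeq annotation of GRCm38.p6. Of the 181 symbols not kept, 106 were listed at 0 in every library. The members were thus chosen by their detection over the 20 libraries. The filter did not use the groups, but a segment could pass it mainly through the group where it was high. Control mice listed 171 to 181 of the 183 above 0, IF mice 83 to 181, PBMC mice 152 to 174 and PBMC-hCG mice 110 to 164. At the edge of the filter, 6 segments listed above 0 in 9 libraries stayed out and 4 segments listed in 10 were taken in. Igkv12-38, which stayed out, had 240.9 TPM in control mouse 3, and Igkv1-133, which was taken in, had 366 TPM in control mouse 4.

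The mice were labelled wild type and were 8 to 12 weeks old, and the uteri were taken at 18:00 on day 3.5 after mating. Control mice received no RU486. The IF group, a model of implantation failure, received the progesterone receptor antagonist RU486 subcutaneously on the morning of day 3.5. Mice of the PBMC group received RU486 and, on day 1.5, peripheral blood mononuclear cells of non-pregnant donor mice into the uterus. These cells had been cultured without human chorionic gonadotropin (hCG). Mice of the PBMC-hCG group received RU486 and such cells after culture of the same length with hCG. RNA of the given cells and RNA of the recipient's own cells cannot be told apart in these libraries. Likewise, in whole uterine tissue, fewer cells of a type and less RNA per cell cannot be told apart.

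An antibody consists of heavy and light chains, and each chain joins a variable region, encoded by a rearranged V segment, to a constant region that sets its class. Because a B cell and its plasma cell descendants rearrange a single productive heavy and light chain gene, the V segments in a tissue record which clones are there, and a few secreting clones can dominate the RNA. Plasma cells of mucosal tissues secrete mostly IgA, whose heavy chain constant region is Igha. Jchain links IgA units into polymers that the epithelial receptor Pigr carries into the lumen, Mzb1 is a chaperone of the endoplasmic reticulum for antibody assembly, and Tnfrsf17 (BCMA) receives survival signals in plasma cells. The variable and constant parts of a chain are read from the same transcripts, so the genes described here are not independent of each other.

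As each library is scaled to the same total, no depth can be given for any value. Of the uterine and other tissue markers looked at, the 8 uterine markers summed to 2572 to 4454 TPM per library. The B cell genes Ms4a1 and Pax5 were near 0 in every library, with Ms4a1 at 0 to 0.469 TPM and Pax5 at 0 to 0.147 TPM. Other B cell markers were higher, with Cd79b at 2.034 to 4.955 TPM and Fcrla at 1.508 to 3.373 TPM. The 14 markers of the list summed to 8.6 to 15.9 TPM per library. Of the 20 libraries, 4 stood apart in the genes described here. IF mouse 1 had antibody RNA at the level of the controls, IF mouse 5 had the least of all 20, PBMC-hCG mouse 2 carried mostly IgM, and control mouse 2 was the only library with much Ighg3 and also had the highest level of fat markers, with Adipoq at 42.1 TPM.

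V segments of a family are close in sequence, and short reads can be shared between them. For the 169 variable members, the coding sequence in GENCODE M21 (GRCm38) was compared with those of the other members of its kind. The nearest other member was at least 95% identical for 87 segments and at least 90% identical for 145, the median identity was 95.4%, and 48 segments shared an identical run of at least 100 bases with their nearest member. No pair was identical over the whole coding sequence. The most abundant kappa segment, Igkv5-43 (chr6:69823355-69823943, minus strand, with the coding bases of its 2 exons joined), and its nearest member Igkv5-45 (chr6:69775750-69776344, minus strand) differ at 5 of 347 bases and share a run of 193 bases. The last 300 coding bases of both are shown 5′ to 3′, with the 3 differing bases of this stretch in capitals.
Igkv5-43: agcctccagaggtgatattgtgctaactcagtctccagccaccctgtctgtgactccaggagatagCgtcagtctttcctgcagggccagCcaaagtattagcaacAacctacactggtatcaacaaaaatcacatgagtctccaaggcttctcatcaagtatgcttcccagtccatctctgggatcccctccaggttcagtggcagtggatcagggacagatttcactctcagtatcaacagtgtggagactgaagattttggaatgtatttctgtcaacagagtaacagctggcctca
Igkv5-45: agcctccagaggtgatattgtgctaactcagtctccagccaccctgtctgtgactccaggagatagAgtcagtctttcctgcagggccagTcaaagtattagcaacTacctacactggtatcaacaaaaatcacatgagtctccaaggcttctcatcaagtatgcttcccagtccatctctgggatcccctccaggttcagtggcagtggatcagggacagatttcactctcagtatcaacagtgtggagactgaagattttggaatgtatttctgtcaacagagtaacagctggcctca

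In the 6 mice with Igkv5-43 at 100 TPM or more, Igkv5-45 was 0.154 to 0.206 times its level, and in the other 14 mice the ratio ran from 0 to 1.55. How many reads of the abundant segment were placed on its neighbour was not tested, so Igkv5-45 is taken as uncertain. The heavy chain pair Ighv1-15 (chr12:114657353-114657786, minus strand) and Ighv1-23 (chr12:114764450-114764883, minus strand) is nearly as close, differing at 7 of 351 bases with a longest shared run of 88 bases, of which 5 lie in the last 300 bases shown here and are in capitals.
Ighv1-15: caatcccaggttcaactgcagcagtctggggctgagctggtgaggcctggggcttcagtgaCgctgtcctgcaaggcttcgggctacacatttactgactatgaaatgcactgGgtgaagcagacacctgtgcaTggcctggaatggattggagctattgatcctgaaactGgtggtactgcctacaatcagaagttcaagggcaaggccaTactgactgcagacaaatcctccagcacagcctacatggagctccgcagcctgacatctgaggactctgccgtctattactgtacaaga
Ighv1-23: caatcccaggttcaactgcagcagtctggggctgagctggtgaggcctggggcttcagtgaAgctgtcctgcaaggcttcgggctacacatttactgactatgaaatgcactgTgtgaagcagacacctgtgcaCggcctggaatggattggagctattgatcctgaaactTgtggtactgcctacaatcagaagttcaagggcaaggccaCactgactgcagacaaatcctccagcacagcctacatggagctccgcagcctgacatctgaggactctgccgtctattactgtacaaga

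Here the values separated the segments almost fully: with Ighv1-15 at 109, 385, 167 and 349.8 TPM in control mice 1, 3 and 4 and PBMC mouse 3, Ighv1-23 stood at 0.396, 1.46, 0.265 and 1.35 TPM. The pair Ighv6-3 (chr12:114391712-114392169, minus strand) and Ighv6-6 (chr12:114434788-114435244, minus strand) is shown because Ighv6-3 fell in the 3 groups given RU486. These differ at 32 of 356 aligned bases, and the capitals mark the differences in the last 300.
Ighv6-3: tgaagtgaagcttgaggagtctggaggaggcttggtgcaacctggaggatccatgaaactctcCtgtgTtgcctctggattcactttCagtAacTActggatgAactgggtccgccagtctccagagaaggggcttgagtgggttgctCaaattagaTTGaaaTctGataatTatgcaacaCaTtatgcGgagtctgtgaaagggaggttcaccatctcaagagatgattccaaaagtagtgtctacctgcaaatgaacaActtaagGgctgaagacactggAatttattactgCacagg
Ighv6-6: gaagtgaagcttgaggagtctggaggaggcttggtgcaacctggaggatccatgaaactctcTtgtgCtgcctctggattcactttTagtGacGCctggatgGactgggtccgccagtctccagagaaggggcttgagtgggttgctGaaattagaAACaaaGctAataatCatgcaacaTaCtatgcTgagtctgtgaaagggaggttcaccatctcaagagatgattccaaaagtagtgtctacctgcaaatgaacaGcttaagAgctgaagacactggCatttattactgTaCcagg

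In the control mice, Ighv6-6 was 0.0051 to 0.0734 times the level of Ighv6-3. The plot of closely related segments shows the values of these pairs mouse by mouse.

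**Figure D1:**
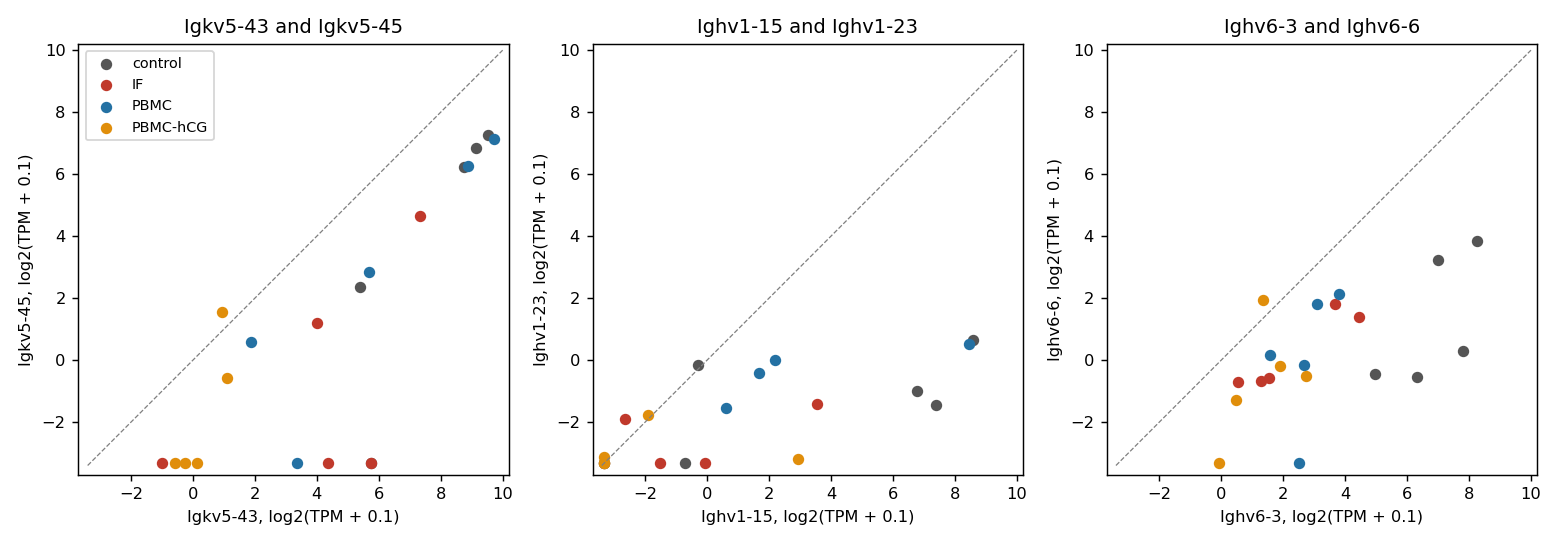
TPM of pairs of closely related V segments in each of the 20 mice as log2(TPM + 0.1), with a point per mouse coloured by group and a dashed line at equal values. Igkv5-45 ran at 0.154 to 0.206 times Igkv5-43 in the 6 mice where the latter reached 100 TPM, whereas Ighv1-23 stayed at 1.46 TPM or below in mice with Ighv1-15 above 100 TPM.

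Antibody RNA was on average highest in the control group and, with all mice taken in, lowest in the PBMC-hCG group, with wide and overlapping ranges in the IF and PBMC groups. Summed over the immunoglobulin members, it made up 1.03, 0.484, 1.17, 0.909 and 0.309% of the library in control mice 1 to 5. In IF mice 1 to 5 the share was 0.765, 0.161, 0.0598, 0.199 and 0.0173%, in PBMC mice 0.235, 0.106, 0.524, 0.106 and 0.556%, and in PBMC-hCG mice 0.171, 0.038, 0.0936, 0.0955 and 0.132%. Every PBMC-hCG mouse lay below every control mouse. IF mouse 1 lay within the control range, while the other 4 IF mice lay below it. The sums averaged 7798 ± 3672 TPM (SD, n = 5) in controls, 2405 ± 3025 in IF, 3056 ± 2206 in PBMC and 1059 ± 494 in PBMC-hCG mice. As differences of mean log2 sums, IF stood at -2.53 and PBMC-hCG at -2.88 against control, PBMC at 0.99 and PBMC-hCG at -0.35 against IF. Single IF mice moved these differences. The value for IF against control ran from -3.20 without IF mouse 1 to -1.83 without IF mouse 5, and that for PBMC against IF from 0.29 without IF mouse 5 to 1.65 without IF mouse 1. For PBMC-hCG against IF the order itself turned, from -1.05 without IF mouse 5 to 0.32 without IF mouse 1. Because genes were chosen with earlier results known, these sums carry no test.

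Igha, the constant region of IgA on chromosome 12 (113256204 to 113260236), was the most abundant heavy chain constant region gene in 18 of the 20 mice. It was listed at 1372, 636, 1742, 1211 and 399.8 TPM in control mice 1 to 5 and at 1069.9, 226, 79.9, 269.9 and 19.4 TPM in IF mice. In PBMC mice it stood at 359, 151, 655, 149.7 and 729 TPM, and in PBMC-hCG mice at 249.7, 25.6, 148, 134 and 176 TPM. IF mouse 1 reached the control range and PBMC mice 3 and 5 lay inside it, while the PBMC-hCG mice were all below the lowest control. On the log2(TPM + 0.1) scale, Igha fell by 2.56 (SE 0.84) in IF against control mice, with an adjusted p of 0.0341 in limma's test. Without IF mouse 1 the difference was -3.25, and without IF mouse 5 it was -1.81 with an adjusted p of 0.101.

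Igkc, the kappa constant region on chromosome 6 (70726435 to 70726754), followed the same order at higher levels. Control mice 1 to 5 had 2631, 1331, 3144, 2035 and 751 TPM and IF mice 1974, 389, 143, 436 and 37.8 TPM. PBMC mice had 625, 270.2, 1278, 267 and 1214 TPM and PBMC-hCG mice 469.8, 102, 250.2, 239 and 333 TPM. The highest PBMC-hCG mouse was again below the lowest control mouse. Between the IF and control groups Igkc fell by 2.64 (SE 0.77, adjusted p = 0.0196 in limma's test), and by 1.91 without IF mouse 5 (adjusted p = 0.0561).

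Jchain, on chromosome 5 (88519809 to 88527897), stood at 195, 95.8, 237, 197 and 72.7 TPM in control and 157, 28.5, 11.8, 37.7 and 2.66 TPM in IF mice. Its values were 48.3, 22.8, 85.5, 19.2 and 111 TPM in PBMC and 33.6, 4.79, 19.4, 18.4 and 25.1 TPM in PBMC-hCG mice. Mouse by mouse it kept close to Igha, at 0.126 to 0.187 times its TPM in all 20 libraries. It fell by 2.70 (SE 0.80, adjusted p = 0.0214) in IF against control mice, and by 1.94 without IF mouse 5 (adjusted p = 0.0606, limma).

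The plasma cell chaperone gene Mzb1 spanned a smaller range. It was listed at 6.57, 6.82, 7.94, 8.27 and 3.72 TPM in control mice and at 9.97, 2.76, 2.55, 2.53 and 1.13 TPM in IF mice. PBMC mice had 3.65, 2.39, 8.9, 1.46 and 4.9 TPM and PBMC-hCG mice 3.24, 2.51, 2.27, 2.27 and 2.17 TPM. IF mouse 1 had the highest value of all 20, and the other IF mice and the PBMC-hCG mice lay below the lowest control mouse. Mzb1 fell by 1.12 (SE 0.46) in IF mice, which met the fold and raw p criteria but not the adjustment (adjusted p = 0.0873 in limma's test). The call was lost without control mouse 4 and without IF mouse 5. Tnfrsf17, the survival receptor, lay between 0 and 1.7 TPM, with 0 in 5 mice spread over the 4 groups, and was too low to follow.

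**Figure D2:**
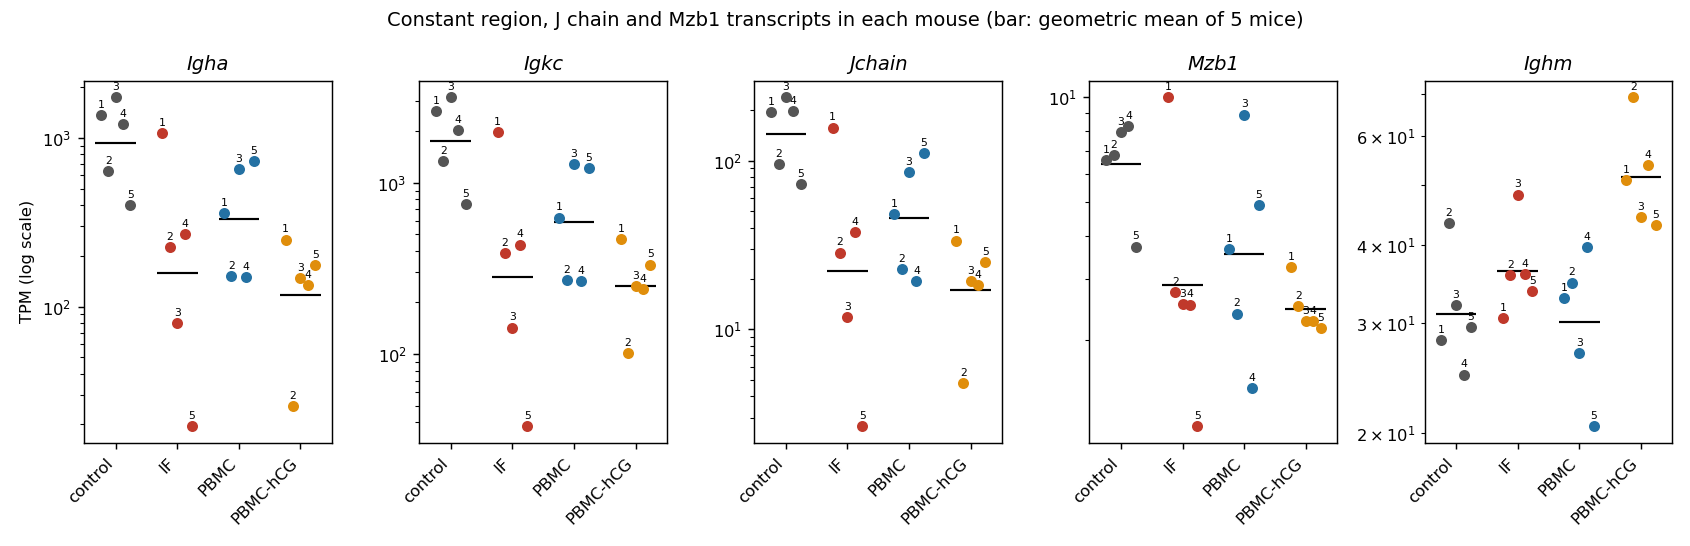
TPM of the main constant region and plasma cell genes in each mouse on log axes, with the 5 mice of each group as numbered points and the geometric mean of the group as a bar. The PBMC-hCG mice lay below all control mice for Igha, Igkc, Jchain and Mzb1, whereas for Ighm they were the highest group.

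Ighm, the constant region of IgM on chromosome 12 (113418826 to 113422730), did not follow the IgA genes. IgM marks unswitched B cells and the plasma cells that arise from them. Ighm was listed at 28.1, 43.5, 32, 24.8 and 29.6 TPM in control mice 1 to 5 and at 30.6, 35.9, 48.3, 35.9 and 33.8 TPM in IF mice. PBMC mice had 32.9, 34.8, 26.9, 39.7 and 20.5 TPM and PBMC-hCG mice 50.9, 69.2, 44.5, 53.9 and 43.1 TPM. All PBMC-hCG mice lay above all PBMC mice, and of the controls only mouse 2 reached into the PBMC-hCG range. Relative to control mice Ighm was higher by 0.73 (SE 0.18, adjusted p = 0.0046 in limma's test) in the PBMC-hCG group, a change below the fold criterion, and by 0.62 without PBMC-hCG mouse 2 (adjusted p = 0.0166). Between PBMC-hCG and PBMC mice the difference was 0.77 (SE 0.18), with a raw p of 0.000379 and an adjusted p of 0.264. The corresponding differences were 0.23 (adjusted p = 0.394) for IF against control and -0.04 (adjusted p = 0.908) for PBMC against control mice. PBMC-hCG mouse 2, with the highest Ighm, also had the highest Ms4a1 (0.469 TPM) and Pax5 (0.147 TPM) of the 20 libraries, and its 14 B cell markers summed to 15.9 TPM. In the groups these sums ran from 8.6 to 15.6 TPM (control), 10.3 to 14.3 (IF), 9.7 to 15.3 (PBMC) and 11.3 to 15.9 TPM (PBMC-hCG). Ms4a1 averaged 0.048 TPM in control, 0.094 in IF, 0.038 in PBMC and 0.21 TPM in PBMC-hCG mice, and Pax5 0.018, 0.031, 0.023 and 0.068 TPM in the same order. In limma's fit of genes above 0 in at least 10 libraries Ms4a1 was higher in PBMC-hCG than in control mice by 1.01 (SE 0.36, adjusted p = 0.0452), and higher than in PBMC mice by 1.13 with a raw p of 0.00539 and an adjusted p of 0.282. Ms4a1 lay near the pseudocount of 0.1, and its dependence on single mice was not tested. Of the 13 B cell markers in that fit, 10 were higher and 3 lower in PBMC-hCG than in control mice, at any p. Cd79a averaged 2.52 TPM in control and 1.38 in PBMC-hCG mice, and Blk 0.927 and 0.754 TPM. The part of these B cell markers in the Ighm difference was not tested.

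The class composition of the heavy chain RNA differed widely between mice. Igha made up 96.9, 85.1, 96.6, 96.9 and 90.9% of the heavy chain constant region TPM in control mice 1 to 5 and 91.9, 85.4, 61.2, 83.6 and 35.3% in IF mice. Its share was 90.1, 80.1, 91.4, 76.3 and 94.9% in PBMC and 80.2, 25.9, 76.1, 70.2 and 79.8% in PBMC-hCG mice. IgM took most of the rest except in control mouse 2, IF mouse 1 and PBMC mouse 3, where the IgG genes together took more (8.94, 5.45 and 4.71% against 5.82, 2.63 and 3.75% for Ighm). Ighm reached 61.4% in IF mouse 5 and 70.0% in PBMC-hCG mouse 2, the only mice in which it exceeded Igha, against 1.78 to 6.73% in controls.

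The IgG constant regions were minor throughout, with Ighg1, Ighg2b, Ighg2c and Ighg3 together making up 0.271 to 8.94% of the heavy chain RNA. Ighg2b, the most evenly detected of these, had 9.44, 16.3, 19.8, 5.53 and 6.35 TPM in control mice and 23.6, 0.714, 0.104, 6.74 and 0.534 TPM in IF mice. In the PBMC and PBMC-hCG groups Ighg2b had 1.67, 1.32, 12.6, 1.66 and 9.69 and 3.2, 1.14, 0.666, 0.204 and 0.935 TPM, respectively. It met the fold and raw p criteria as lower in IF (-2.54, SE 1.02, adjusted p = 0.0839) and in PBMC-hCG mice (-3.36, SE 1.02, adjusted p = 0.0178) against control. In IF mice the call was lost without control mouse 3 and without IF mouse 2, 3 or 5, and the difference ran from -3.48 without IF mouse 1 to -1.76 without IF mouse 3. Other IgG genes peaked in single mice. Ighg3 was at 41.9 TPM in control mouse 2 and at most 0.84 TPM elsewhere, and Ighg2c was at 34.2 TPM in IF mouse 1. The 4 fat markers summed to 341.7 TPM in the same control mouse 2 and to 0 to 23.5 TPM in the other controls, 0 to 81.1 TPM in IF, 0 to 32.4 TPM in PBMC and 0.2 to 5.9 TPM in PBMC-hCG mice, and their part in its Ighg3 was not tested.

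Among the light chains, the lambda constant regions Iglc1, Iglc2 and Iglc3 made up 2.22 to 18.9% of the light chain constant TPM, with the highest shares in IF mouse 4 (18.9%), PBMC mouse 5 (16%) and control mouse 4 (13.9%). Iglc2 stood at 41.7, 32, 26.2, 174 and 8.96 TPM in control and 19.1, 5, 0.985, 11 and 1.02 TPM in IF mice, and it fell by 3.07 (SE 0.93, adjusted p = 0.0233, limma). In PBMC and PBMC-hCG mice Iglc2 stood at 5.28, 3.49, 12.1, 2.67 and 72.2 and 7.16, 4.36, 1.52, 2.94 and 4.13 TPM. The control and PBMC sets are spread by single mice, control mouse 4 and PBMC mouse 5, which also carried the most Iglv1 and Iglv2. Iglv1, a lambda V segment, was at 195 and 170.4 TPM in these mice, and Iglv2 at 211 and 73.1 TPM, while Iglv3 did not pass 5.88 TPM in any mouse.

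**Figure D3:**
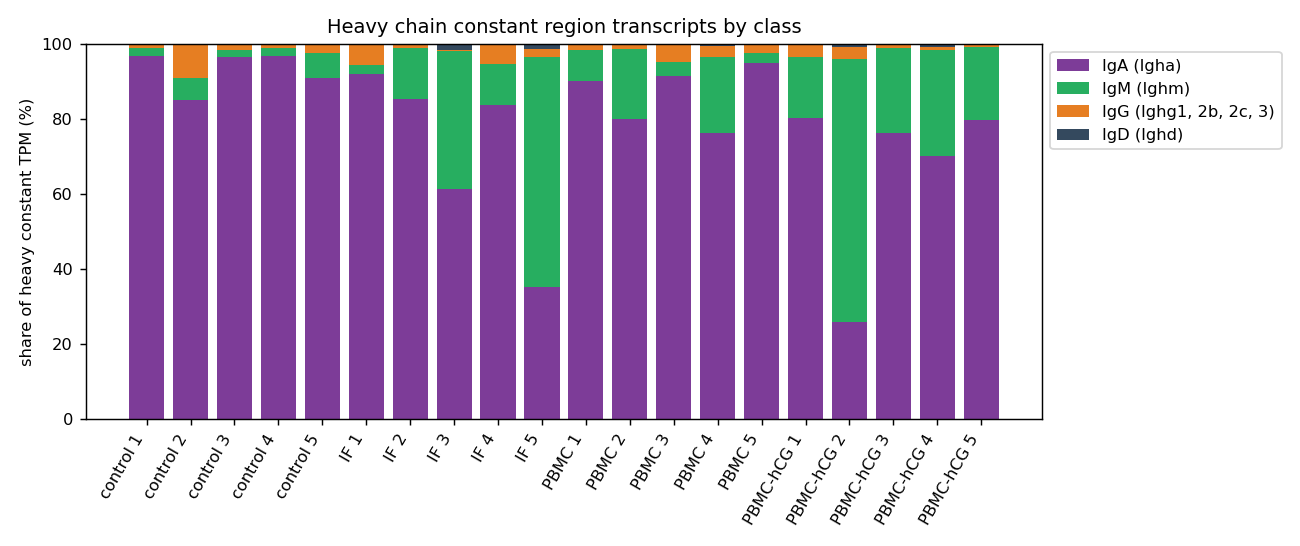
Share of the heavy chain constant region TPM (in percent) taken by Igha, Ighm, the IgG genes and Ighd, as stacked bars for the 20 mice in order of group. Igha took 85.1 to 96.9% in controls, and Ighm exceeded it only in IF mouse 5 (61.4%) and PBMC-hCG mouse 2 (70.0%).

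The most abundant V segments differed between mice, although some mice shared their leading segment. The most abundant V segment of a mouse was Igkv5-43 in control mouse 4, IF mouse 3 and PBMC mice 2, 3 and 5, Igkv2-137 in control mice 2 and 5, Igkv12-41 in PBMC-hCG mice 3 and 4, and Igkv1-117 in PBMC mouse 4 and PBMC-hCG mouse 5. In the other 9 mice it was a segment that led in no other mouse, such as Igkv13-84 in control mouse 1 (666.8 TPM), Igkv4-61 in control mouse 3 (566.8 TPM), Ighv1-81 in IF mouse 1 (292.9 TPM) and Igkv13-85 in IF mouse 5 (9.54 TPM). Igkv13-84 and Igkv13-85 are 96.25% identical with a shared run of 193 bases, and how reads were placed between them was not tested. For 36 of the 169 variable members, more than 50% of the TPM summed over the 20 mice came from a single mouse. The share held by the highest mouse had a median of 34.2% and ran from 10.1% for Ighv1-69 to 95.3% for Igkv1-133, whose highest value was in control mouse 4. The segments reached their highest value in a control mouse in 87 cases (51.5%), in an IF mouse in 42, in a PBMC mouse in 25 and in a PBMC-hCG mouse in 15. These counts are not independent of the detection filter, as control mice on average listed the most members above 0. Of the 42 in the IF group 29 were in IF mouse 1, and of the 25 in the PBMC group 16 were in PBMC mouse 5.

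Evenness of V segment use was given as the effective number of segments, the number of equally used segments that would give the same diversity. It ran from 4.4 in PBMC-hCG mouse 5 to 45.8 in PBMC mouse 1 for Ighv and from 5.38 in PBMC-hCG mouse 5 to 44.4 in IF mouse 4 for Igkv. PBMC-hCG mouse 5 was thus the most uneven for both chains: Ighv10-1 stood at 161 TPM and made up 63.3% of its Ighv RNA, and Igkv1-117 at 304.5 TPM made up 61.7% of its Igkv RNA. In the other 4 PBMC-hCG mice Ighv10-1 was at 0.651, 1.79, 0 and 0.513 TPM. Igkv12-41 had 13.3, 0, 73, 112 and 0 TPM in PBMC-hCG mice 1 to 5 and at most 33.6 TPM in the other groups, in PBMC mouse 5. Members listed above 0 numbered 171 to 181 in control mice, 83 to 181 in IF mice, with the lowest number in IF mouse 5, 152 to 174 in PBMC mice and 110 to 164 in PBMC-hCG mice.

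By family, Ighv1 was the largest heavy chain family and took 56.0% of the Ighv TPM on average in controls, 63.2% in IF, 66.6% in PBMC and 56.4% in PBMC-hCG mice. Ighv6 took 13.6% ± 12.6 (SD, n = 5) in controls against 3.65% ± 3.83, 2.58% ± 2.20 and 3.12% ± 3.29 in the IF, PBMC and PBMC-hCG groups, and the kappa family Igkv2 took 10.7% ± 12.6 in controls against 1.24% ± 1.18, 2.08% ± 1.72 and 1.33% ± 1.19. These spreads were close to the control means in size. The 11 members annotated as V pseudogenes were mostly low, but Ighv1-21 was at 175 TPM in control mouse 1, Ighv4-2 at 56.4 and 48.4 TPM in control mice 1 and 3, and Ighv3-2 at 51.7 TPM in IF mouse 1. Ighv4-2 is 96.29% identical to its nearest member Ighv4-1, with a shared run of 113 bases. Ighv4-1 also peaked in control mouse 1, at 51.8 TPM. Ighv3-2 is 95.42% identical to Ighv3-1, and Ighv1-21 is 94.59% identical to Ighv1-22. Whether reads of these neighbours were placed on the pseudogenes was not tested. B6D2F1 mice carry the alleles of a second inbred strain beside those of the reference strain, and which allele gave these reads is unknown.

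**Figure D4:**
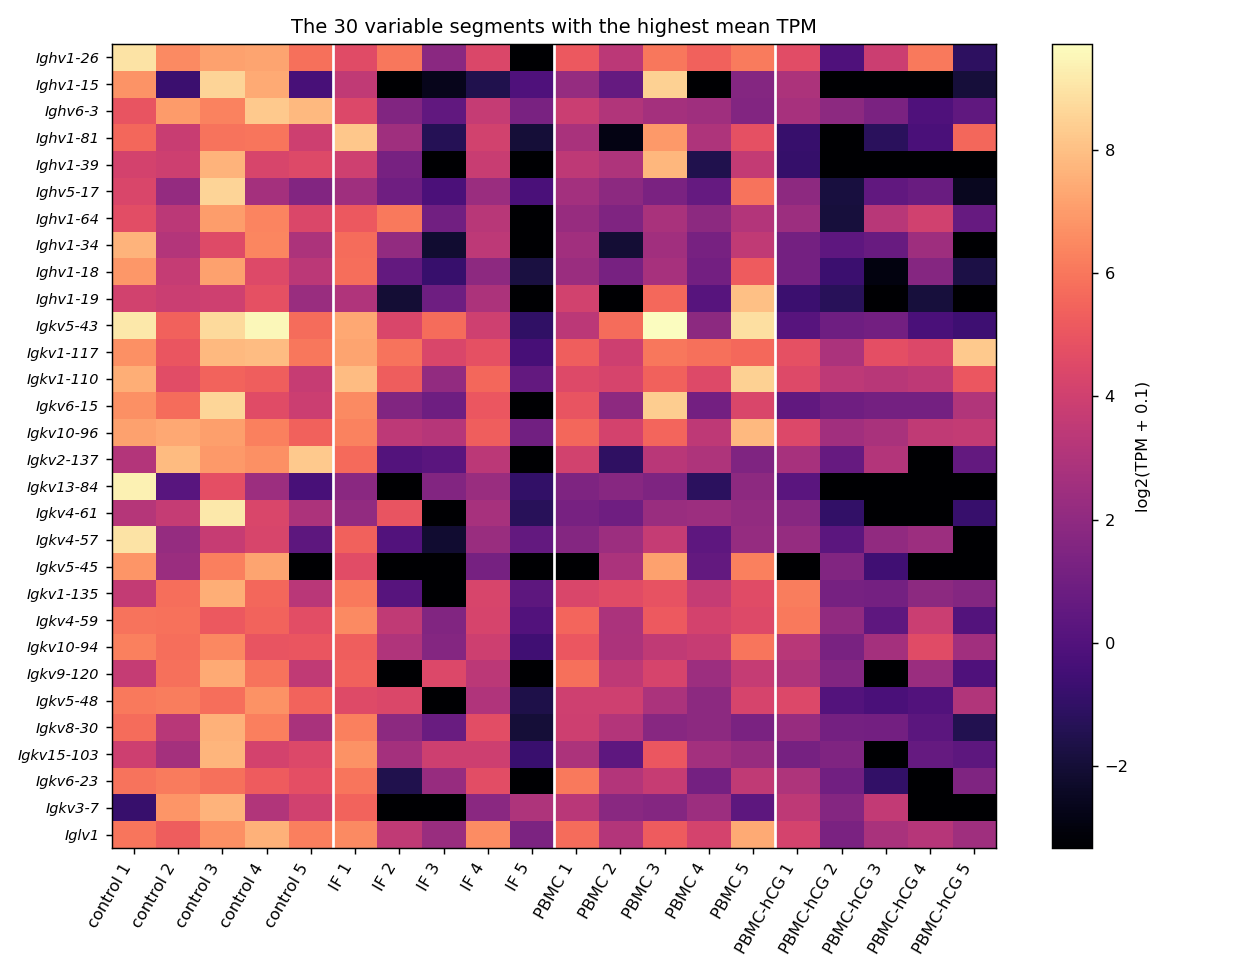
The 30 V segments with the highest mean TPM (rows) in the 20 mice (columns, by group), with log2(TPM + 0.1) as the colour scale. High values sat in different segments in different mice, for example Igkv13-84 in control mouse 1, Igkv4-61 in control mouse 3, Ighv1-81 in IF mouse 1 and Igkv1-117 in PBMC-hCG mouse 5.

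Ighv6-3 separated the control mice from all others without overlap. Of the tested genes 4.27, 4.08 and 5.07% lay in all IF, PBMC and PBMC-hCG mice, respectively, below all control mice. The share that did so in the 3 groups at once was not counted. Ighv6-3 was listed at 31, 127, 79.8, 305 and 224 TPM in control mice 1 to 5 and at 21.9, 2.82, 1.34, 12.6 and 2.34 TPM in IF mice. PBMC mice had 13.9, 8.39, 6.27, 5.54 and 2.89 TPM and PBMC-hCG mice 6.63, 3.66, 2.42, 0.843 and 1.29 TPM. Against control, Ighv6-3 fell by 4.57 (SE 0.74, adjusted p = 0.00021) in IF, by 4.14 (adjusted p = 0.00061) in PBMC and by 5.59 (adjusted p = 3.0e-05) in PBMC-hCG mice. These comparisons share the 5 control mice. Igkv5-48, which was not listed in every library, also had no overlap, with 66.3, 72.7, 54.1, 106 and 44.1 TPM in control and 23, 21.2, 0, 7.94 and 0.224 TPM in IF mice. PBMC mice had 15.5, 15.8, 7.29, 3.59 and 18.8 TPM and PBMC-hCG mice 21.8, 0.954, 0.747, 0.92 and 8.26 TPM. The shares of tested genes given above do not cover Igkv5-48, as they are for genes above 0 in every library. This segment was named after its values were seen. In limma's fit of genes above 0 in at least 10 libraries Igkv5-48 fell by 4.64 (adjusted p = 0.0168) in IF and by 4.56 (adjusted p = 0.0137) in PBMC-hCG mice, and differed by -2.64 (adjusted p = 0.186) in PBMC mice.

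Igkv5-43 followed another pattern, reaching 100 TPM in 3 control mice, 1 IF mouse and 2 PBMC mice. Its values were 560.0, 42.3, 428, 736 and 53.3 TPM in control and 162, 20.3, 53.2, 15.8 and 0.396 TPM in IF mice. Those in PBMC mice were 10.1, 51.7, 838, 3.57 and 469.5 TPM and those in PBMC-hCG mice 1.01, 1.82, 2.05, 0.738 and 0.562 TPM. No PBMC-hCG mouse passed 2.05 TPM, and the lowest PBMC mouse was at 3.57 TPM. It fell by 7.44 (SE 1.48, adjusted p = 0.0010) in PBMC-hCG against control mice, and by 5.63 against PBMC mice with a raw p of 0.00122 and an adjusted p of 0.264 (limma).

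Igkv17-121 differed from most segments in being highest in PBMC mice. It stood at 4.87, 1.37, 13, 5.95 and 9.19 TPM in control mice and 14.5, 1.93, 1.36, 5.64 and 0.467 TPM in IF mice. PBMC mice had 26, 32.8, 6.08, 5.41 and 4.32 TPM and PBMC-hCG mice 0.706, 1.37, 0.343, 0.127 and 2.28 TPM. PBMC mice 1 and 2 were the highest of the 20, and the PBMC and PBMC-hCG mice did not overlap. In limma's test it was higher by 1.97 (SE 0.85), with a raw p of 0.0318 and an adjusted p of 0.723, in PBMC than in IF mice and lower by a log2 difference of -3.76, with a raw p of 0.000291 and an adjusted p of 0.264, in PBMC-hCG than in PBMC mice.

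Igkv11-125 was the single tested member called higher in IF mice, and in the fit of the 183 members it did not pass adjustment. It stood at 1.87, 2.15, 0.779, 0.671 and 2.37 TPM in control mice and 7.47, 2.88, 1.61, 2.49 and 6.45 TPM in IF mice, with overlap between IF mouse 3 and the controls. In PBMC mice it stood at 5.69, 3.85, 1.77, 2.79 and 2.27 TPM and in PBMC-hCG mice at 2.34, 2.65, 2.79, 1.97 and 6.42 TPM. The rise was 1.29 (SE 0.45, adjusted p = 0.0451) in IF against control mice, and it lost the adjusted threshold when any of 6 mice, IF mice 1, 2 and 5 and control mice 1, 3 and 4, was left out, at adjusted p values of up to 0.125. In PBMC-hCG against control mice it was higher by 1.03 with a raw p of 0.0334 and an adjusted p of 0.0871, and that call was lost without control mouse 3 or 4 or PBMC-hCG mouse 5. In PBMC against control mice the call was lost without control mouse 3 or 4 or PBMC mouse 1 or 2. Its nearest member, Igkv14-111, is 81.3% identical.

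Formal comparisons used limma on log2(TPM + 0.1) across the 18706 genes listed above 0 in every library. Among these were 29 members: 7 constant region genes, 7 Ighv, 12 Igkv and 1 Iglv segment, Jchain and Mzb1. A gene was called when its level changed by a factor of 2 or more with a raw p under 0.05. The 183 members were tested together in a second fit of the 23047 genes above 0 in at least 10 libraries. Because members could pass this filter through the group where they were high, counts and medians over the 183 are no test of the set. Since IF mice serve in several comparisons, as do control and PBMC mice, calls in different comparisons share samples.

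The comparison of IF with control mice asked what RU486 did to the day 3.5 uterus. Of the 29 tested members, 22 were lower and 1 higher in IF mice, where 1.91% and 2.12% of the tested genes were called in these directions, and 12 of the 22 fell after adjustment, where 1.63% of the tested genes did. The lower members were 6 of the 7 constant region genes, which leaves out Ighm, the 7 Ighv segments, 6 of 12 Igkv segments, Iglv1, Jchain and Mzb1. The 29 had to be listed above 0 in every library and do not stand for the 183. Only Ighv1-22, Ighv6-3 and Igkv6-25 lay in all IF mice below all control mice, while 4.27% of the tested genes did so. Igkv6-25 fell by 4.08 (SE 1.10, adjusted p = 0.0116). The number of members called ran from 15 without IF mouse 5 to 26 without IF mouse 1. Over the 183 members, 88 were lower and 1 higher, where 2.63% and 2.55% of the tested genes were, and the median difference was -2.37 against 0.02 for the 23047 genes. After adjustment 31 of the 183 were lower, against 1.84% of the tested genes. That count ran from 9 without IF mouse 5 to 77 without IF mouse 1. In this fit Igkv2-137, the leading segment of control mice 2 and 5, fell by 5.34 (adjusted p = 0.0198).

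The comparison of PBMC with IF mice asked how the RU486-treated uterus differed after cells were injected into it. IF mice had no injection into the uterus, and mice given medium alone were not among the libraries. The given cells therefore cannot be told apart from the injection and its medium, which holds for PBMC-hCG against IF mice as well. Ighv1-22 and Igkv17-121 met the fold and raw p criteria as higher, at 2.42 (adjusted p = 0.667) and 1.97 (adjusted p = 0.723), where 0.155% of the tested genes were higher and 0.283% lower. None of the 29 passed adjustment in limma's test, as none of all tested genes did (0%). At any fold 2 of the 29 had a raw p under 0.05, where 1271 of the 18706 tested genes did. In no tested member did the groups separate without overlap, where 0.577% of the tested genes lay higher and 0.433% lower in all PBMC mice. Igha was higher by 1.05 (SE 0.84, adjusted p = 0.808), Igkc by 1.05 (SE 0.77, adjusted p = 0.800) and Jchain by 1.04 (SE 0.80, adjusted p = 0.805). Without IF mouse 1 the Igha difference was 1.74, with a raw p of 0.0371 and an adjusted p of 0.516. Members called numbered 1 without IF mouse 2 and 12 without IF mouse 1. Over the 183 members 21 were higher and 1 lower, where 0.499% and 0.586% of the tested genes were, and none passed adjustment (0% of the tested genes) while 22 met the raw criteria, a number that ran from 10 without IF mouse 5 to 61 without IF mouse 1. The 1 lower member was Igkv4-63 (-4.58), whose highest value was 161.1 TPM in IF mouse 2.

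Between PBMC-hCG and IF mice, Igkv5-43 (-3.81, adjusted p = 0.0815) and Igkv17-121 (-1.79, adjusted p = 0.140) were called lower, where 1.22% of the tested genes were lower, and no member was called higher, where 1.09% were. None of the 29 passed adjustment in limma's test, where 1.7% of the tested genes did. At any fold 3 of the 29 had a raw p under 0.05, where 6547 of the 18706 tested genes did. Beside Igkv5-43 and Igkv17-121 these included Ighm, which was higher by 0.50, with a raw p of 0.0116 and an adjusted p of 0.0637 in limma's test. Igha differed by -0.44 (SE 0.84, adjusted p = 0.743), with a sign that turned to 0.25 without IF mouse 1 and 0.11 without PBMC-hCG mouse 2. Of the 183 members, 9 were lower and 2 higher, where 1.55% and 1.6% of the tested genes were, and none passed adjustment, against 1.41% of the tested genes. The 11 calls became 7 without PBMC-hCG mouse 3 and 25 without IF mouse 5. The red cell genes moved with this comparison, with 4 of 5 called lower in PBMC-hCG mice and sums of 341.7 to 878.4 TPM against 640 to 1802 TPM in IF mice, 480.2 to 1684 TPM in PBMC mice and 645.8 to 1295 TPM in control mice. Their part in the immunoglobulin differences was not tested.

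PBMC-hCG and PBMC mice differ in whether the given cells were cultured with or without hCG. Of the 29 tested members 10 were lower in PBMC-hCG mice and none higher, where 0.508% and 0.385% of the tested genes were called in these directions. None passed adjustment (limma), against 0.0107% of the tested genes. At any fold 11 of the 29 had a raw p under 0.05, where 3024 of the 18706 tested genes did. The lower members were Iglc1 (-2.32, SE 0.88), Iglc3 (-1.88, SE 0.72), Iglv1 (-2.30, SE 0.94), 2 Ighv and 5 Igkv segments. Iglc3 stood at 4.28, 3.66, 6.59, 3.43 and 37.3 TPM in PBMC mice and 3.45, 1.49, 3.22, 2.69 and 0.306 TPM in PBMC-hCG mice, so that PBMC mouse 5 was far above the rest. Igkv5-43 and Igkv17-121 lay in all PBMC-hCG mice below all PBMC mice, as did 1.47% of the tested genes. Ighm alone lay above in all, as did 1.99% of the tested genes. Calls numbered 4 without PBMC mouse 5 and 15 without PBMC-hCG mouse 1. Igha, Igkc and Jchain differed by -1.49, -1.24 and -1.42 (adjusted p = 0.358, 0.394 and 0.360). Over the 183 members 52 were lower, where 0.933% of the tested genes were, and none higher, against 0.92%. None of the 52 passed adjustment, against 0.013% of the tested genes.

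Between PBMC and control mice 6 of the 29 were lower and 1, Igkv11-125, higher, where 1.54% and 1.8% of the tested genes were. Ighv6-3 and Ighv4-2 passed adjustment, where 1.36% of the tested genes fell. Ighv4-2, annotated as a pseudogene and close in sequence to Ighv4-1, fell by 3.14 (SE 0.79, adjusted p = 0.0087 in limma's test). It and Ighv6-3 also lay in all PBMC mice below all control mice, as did 4.08% of the tested genes. Igha differed by -1.51 (adjusted p = 0.228), Igkc by -1.58 (adjusted p = 0.169) and Jchain by -1.66 (adjusted p = 0.165). Calls numbered 4 without control mouse 1 and 12 without control mouse 5. Among the 183 members 29 were lower and 1 higher, where 2.1% and 2.22% of the tested genes were, and 6 were lower after adjustment, against 1.59% of the tested genes.

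The widest difference was between PBMC-hCG and control mice. Of the 29 tested members 25 were lower and 1, Igkv11-125, higher, where 2.01% and 2.73% of the tested genes were called, and the 25 passed adjustment, where 1.86% of the tested genes fell. Igha fell by 3.0 (SE 0.84, adjusted p = 0.0108), Igkc by 2.82 (SE 0.77, adjusted p = 0.0097), Jchain by 3.07 (SE 0.80, adjusted p = 0.0072) and Mzb1 by 1.35 (SE 0.46, adjusted p = 0.0301) in limma's test. Without PBMC-hCG mouse 2 the fall of Igha was 2.45 (adjusted p = 0.0360). In 18 of the 29 all PBMC-hCG mice lay below all control mice, against 5.07% of the tested genes. Leaving out any of the 10 mice gave 25 or 26 calls. Over the 183 members 120 were lower and 2 higher, where 2.66% and 3.18% of the tested genes were, with a median difference of -3.03 against 0.07 for the 23047 genes. After adjustment 90 were lower, against 2.18% of the tested genes, and this count ran from 61 to 100 over the fits that left out a mouse. Ighv1-39 fell by 7.73 (adjusted p = 0.00135) in this fit, and Ighv3-3 was higher by 4.24 (adjusted p = 0.0243). Tissue markers differed between these groups as well. The 8 uterine markers summed to 2810 to 4454 TPM in control and 2572 to 3045 TPM in PBMC-hCG mice, with 5 lower and 3 higher after adjustment at any fold. The oviduct gene Ovgp1 had 20.2, 19.6, 19, 25.6 and 22.5 TPM in control and 7.46, 5.04, 4.76, 14.5 and 5.37 TPM in PBMC-hCG mice. It fell by 1.64 (adjusted p = 0.000465) in PBMC-hCG and by 1.69 (adjusted p = 0.000532) in PBMC against control mice. Of the 3 ovary and oviduct markers Ovgp1 alone was called in these comparisons. Star averaged 3.72 TPM in control, 5.88 in PBMC and 4.15 in PBMC-hCG mice, and Cyp11a1 0.999, 0.550 and 0.671 TPM. The part of these markers in the immunoglobulin differences was not tested.

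**Figure D5:**
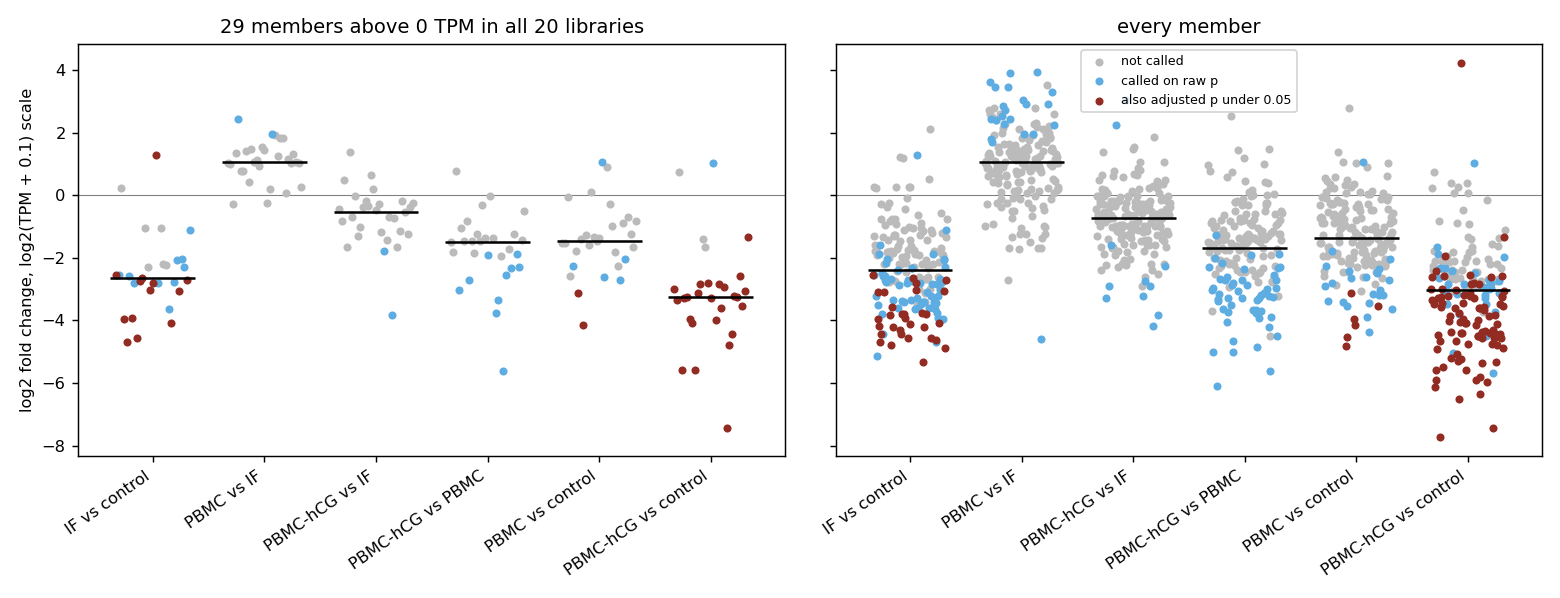
Log2 differences of the members in the 6 comparisons, with a point for each member, coloured by its call, and a bar at the median, for the 29 members above 0 in every library (left) and for the 183 members (right). The medians over the 183 members were -2.37 for IF against control, 1.06 for PBMC against IF, -0.72 for PBMC-hCG against IF, -1.68 for PBMC-hCG against PBMC, -1.36 for PBMC against control and -3.03 for PBMC-hCG against control.

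Other abundant segments were carried by single mice to different degrees. Ighv1-26, the heavy chain segment with the highest mean, had 508, 90.9, 139, 152 and 56.6 TPM in control mice 1 to 5 and 24.4, 65.2, 3.53, 20.8 and 0 TPM in IF mice. In PBMC mice Ighv1-26 had 34.7, 10.3, 63.9, 42.1 and 68.9 TPM and in PBMC-hCG mice 24.7, 0.836, 14.8, 67.3 and 0.371 TPM. Its level in IF mouse 2 and PBMC-hCG mouse 4 lay inside the control range. In the fit of the 183 members it fell by 4.43 (SE 1.50, adjusted p = 0.0473) in IF and by 4.45 (adjusted p = 0.0350) in PBMC-hCG against control mice. Over the 10 fits that left out a mouse, the adjusted p reached 0.128 for IF, without IF mouse 5, where the difference was -2.92, and 0.101 for PBMC-hCG, without PBMC-hCG mouse 5. It stayed under 0.05 in 3 of the 10 for IF and in 5 of the 10 for PBMC-hCG.

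Ighv1-15, Ighv1-39 and Igkv6-15 were high together in control mouse 3 and PBMC mouse 3. Ighv1-39 stood at 199 and 214 TPM there, and at most 22.5 TPM in any other mouse. Igkv6-15 stood at 399 and 332 TPM in these mice, with 101 TPM in control mouse 1 as the next value. Igkv5-43 was abundant in both as well, with values given above. Whether the chains were paired in the same cells cannot be read from bulk RNA.

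Igkv2-137 was high in the control group, at 8.53, 228, 120.2, 102 and 309.6 TPM in mice 1 to 5, and in IF mouse 1, at 51.3 TPM. The other 14 mice had at most 17.2 TPM. Control mouse 1 was thus among the low values.

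A pair of kappa segments, Igkv1-117 and Igkv1-110, did not meet the criteria in PBMC-hCG against control mice. Igkv1-117 had 104, 31.9, 224, 237 and 63.7 TPM in control mice and 28, 7.29, 27.1, 21.3 and 305 TPM in PBMC-hCG mice. The difference was -1.65 (SE 1.11, adjusted p = 0.270, limma), and PBMC-hCG mouse 5 held the highest value of all 20. Igkv1-110 had 183, 24.5, 44.2, 39.5 and 13.2 TPM in control mice and 22.6, 10.7, 9.59, 11.2 and 32.8 TPM in PBMC-hCG mice, a difference of -1.38 (SE 1.10, adjusted p = 0.361). Its highest values were 352 TPM in PBMC mouse 5 and 242 TPM in IF mouse 1.

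In PBMC mouse 5, which had the most segments at their peak in its group, Igkv19-93 stood at 111 TPM and Igkv10-96 at 222 TPM, both the highest of the 20 mice. Between PBMC-hCG and PBMC mice these segments differed by -3.33 (SE 1.06, adjusted p = 0.268) and -1.92 (SE 0.83, adjusted p = 0.290). Ighv1-18, with 4.96, 2.22, 6.61, 2.01 and 37.4 TPM in PBMC mice and 2.06, 0.518, 0.0314, 3.14 and 0.219 TPM in PBMC-hCG mice, differed by -3.01 (SE 1.25, adjusted p = 0.287). Against control mice, Ighv1-18 fell by 5.60 (adjusted p = 0.0024) in PBMC-hCG and by 3.95 (adjusted p = 0.0289) in IF mice, from 119, 12.9, 139, 22.1 and 10.1 TPM in the controls.

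Genes outside the members that belong to the plasma cell program moved less uniformly. Of 16 such genes, all tested, 1 was called lower in IF mice and none higher, where 1.91% and 2.12% of the tested genes were. This gene was Pou2af1, a coactivator of immunoglobulin gene transcription in B and plasma cells, with 2.23, 1.72, 2.57, 2.03 and 0.823 TPM in control mice and 2.57, 0.365, 0.251, 0.463 and 0.124 TPM in IF mice. IF mouse 1 was as high as the controls and the other 4 IF mice lay below them. Pou2af1 fell by 1.73 (adjusted p = 0.0232) in IF and by 1.60 (adjusted p = 0.0257) in PBMC-hCG against control mice. Prdm1 and Irf4, transcription factors of plasma cell differentiation, and Xbp1, which drives the secretory apparatus, were higher in IF mice by 0.95, 0.83 and 0.43 (adjusted p = 4.54e-05, 0.0120 and 0.0119), below the fold criterion. These factors are also used by other cell types, and the cells that carried them were not identified. Fkbp11, a folding enzyme abundant in secretory cells, fell by 1.38 (adjusted p = 0.00149) in PBMC and by 1.59 (adjusted p = 0.00031) in PBMC-hCG against control mice, and was the single gene of the list called in the former comparison. In the 3 comparisons among mice given RU486 (PBMC against IF, PBMC-hCG against IF, PBMC-hCG against PBMC) no gene of this list was called by limma. At any fold 1, 5 and 4 of the 16 had a raw p under 0.05 in limma's test. Of the 18706 tested genes 1271, 6547 and 3024 did so in the same order. Below the fold criterion, Fkbp11, Sdc1 (syndecan-1, a surface marker of plasma cells and epithelia) and Xbp1 were lower in PBMC-hCG than in IF mice after adjustment, at log2 differences of -0.91, -0.83 and -0.48 (adjusted p = 0.0408, 0.0287 and 0.0287).

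Genes for the transport of IgA and the homing and survival of plasma cells gave 9 tested genes of 13. Of these Ccl28, an epithelial chemokine for IgA-secreting cells, was called lower in each group given RU486. It stood at 1.51, 8.17, 1.75, 3.19 and 5.79 TPM in control and 1.5, 0.649, 2.79, 1 and 0.868 TPM in IF mice. PBMC mice had 0.51, 0.652, 0.756, 0.367 and 0.617 TPM and PBMC-hCG mice 0.603, 0.279, 0.484, 2.67 and 1.12 TPM, and the PBMC mice alone lay entirely below the controls. The differences from control were -1.40 (adjusted p = 0.0548) for IF, -2.36 (adjusted p = 0.00274) for PBMC and -1.97 (adjusted p = 0.00667) for PBMC-hCG mice. Tnfsf13b (BAFF), a survival factor of the B lineage, was lower in IF than in control mice by a log2 difference of -0.73 (adjusted p = 0.0172) and higher in PBMC-hCG than in IF mice by 0.72 (adjusted p = 0.0372), both below the fold criterion. Cxcl12, a chemokine that retains plasma cells, was higher than in control mice by 0.56 in IF, 0.58 in PBMC and 0.89 in PBMC-hCG mice (adjusted p = 0.00879, 0.00733 and 0.000149). Tgfb1, a cytokine of IgA class switching, was higher by 0.74 in IF and 0.56 in PBMC mice (adjusted p = 0.00252 and 0.0180), and both genes stayed below the fold criterion. Pigr, the epithelial receptor for polymeric IgA, was not called in any of the 6 comparisons. None of the 8 tested Fc receptor genes of 9 and none of the 9 tested B cell markers of 14 was called by limma in any of the 6 comparisons. At any fold, at most 3 of the former and 1 of the latter had a raw p under 0.05 in a comparison. Of the 18706 tested genes 1271 to 7892 did so, depending on the comparison. These counts are for genes above 0 in every library. Below the fold criterion Fcgrt, which encodes the neonatal Fc receptor for IgG, was higher than in control mice by 0.53 in IF, 0.52 in PBMC and 0.78 in PBMC-hCG mice (adjusted p = 0.00115, 0.00155 and 3.02e-05), and the low-affinity IgG receptor gene Fcgr3 by 0.27, 0.40 and 0.27 (adjusted p = 0.0321, 0.00300 and 0.0241). Over the fits that left out a mouse, Fcgrt stayed under an adjusted p of 0.05 in 10 of 10 for each group, and Fcgr3 in 4, 10 and 6 of 10. In the fit of genes above 0 in at least 10 libraries, the B cell gene Ms4a1 was called as given above, and the ninth Fc receptor gene, Fcmr, which encodes an IgM receptor, was called in 3 comparisons. Fcmr stood at 0.206, 0, 0, 0.0714 and 0.314 TPM in PBMC mice. It averaged 0.334 TPM in control, 0.481 in IF and 0.339 TPM in PBMC-hCG mice. These values lay near the pseudocount of 0.1, on which the log2 differences therefore depend. Fcmr was lower in PBMC than in control mice, at a log2 difference of -1.18 (adjusted p = 0.0356 in limma's test). It was lower in PBMC than in IF mice, at a log2 difference of -1.63 with a raw p of 0.000309 and an adjusted p of 0.344, and higher in PBMC-hCG than in PBMC mice by 1.16, with a raw p of 0.00551 and an adjusted p of 0.282.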

How the data were processed

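Uterine RNA of 20 mice, 1 horn and 1 library per mouse, was sequenced from polyA-selected stranded libraries. According to the methods of the study, the authors trimmed reads with Trimmomatic, aligned them to mm10 with HISAT2 and assembled transcripts with StringTie, in versions not given in the sources used here. The authors deposited TPM values, with library totals of 999989 to 999999, so the depth is unknown and no counting error is given. Whether reads of similar V segments were split or dropped is not stated.

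Groups and mouse numbers came from the sample labels. The authors used the exact test of edgeR, which was not run here because it needs counts. In its place, log2(TPM + 0.1) was fitted with limma 3.58.1 (R 4.3.3, with tables read by the data.table package, version 1.17.8), with all 4 groups together and a variance trend. Genes listed above 0 in every library were tested, and a change by a factor of 2 or more with a raw p under 0.05 was called, after the criteria of the study. Adjusted p values are Benjamini-Hochberg values over all tested genes. The pseudocount of 0.1 understates the changes of low genes. On simulated data of 18706 genes for IF against control, 75 of 100 genes changed by a log2 of 1 and 94 of 100 changed by a log2 of 2 were recovered, and 5.31% of genes left unchanged reached a raw p under 0.05. The changed genes were drawn at random from all tested genes, each with its own spread. Recovery was not measured for the members, many of which varied widely between mice, so these rates do not stand for them.

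The named genes were the constant region and plasma cell genes, the 6 Ighv, 6 Igkv and 3 Iglv segments of highest mean TPM, the 3 largest rises and falls with a raw p under 0.05 and a mean of at least 1 TPM in each comparison, and the highest segment of each mouse. Ighv10-1, Ighv3-3, Ighv1-21, Ighv3-2, Ighv1-69, Igkv1-133, Igkv12-38, Igkv5-48, the single genes of the other lists and the printed neighbours Igkv5-45, Ighv1-23 and Ighv6-6 were named after their values were seen. The members and gene lists were chosen with earlier results of these data known. Sequences and their comparison used Biopython 1.88, pandas 2.3.3 and Python 3.11.15, and figures matplotlib 3.10.9. Alternatives were other pseudocounts, filters, scalings, fits and call rules, and each mouse left out in turn.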

Additional observations from a re-analysis of the deposited data

Results flagged for a closer look

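In each group of 5 mice, the highest and lowest values were compared with the nearest other mouse by Dixon's ratio, over 116 combinations of a measure and a group. Of these 9 passed the critical value of 0.71, where chance gives about 1 in 20 groups. PBMC-hCG mouse 2 accounted for 5 of the 9. Its Igha stood at 4.68 on the log2(TPM + 0.1) scale (25.6 TPM), against 7.06 to 7.96 in the other 4 mice of the group. Igha made up 25.9% of its heavy chain constant TPM, where the others had 70.2 to 80.2%, and Ighm made up 70.0%, where the others had 16.3 to 28.3%. Its ratio of Jchain to Igha was 0.187 (0.131 to 0.143 in the others) and its ratio of Igkc to Igha was 3.97 (1.69 to 1.89 in the others). These 5 measures share Igha or Ighm and are not independent.

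The other 4 concerned single genes. Iglc3 was at 5.23 on the log2 scale (37.3 TPM) in PBMC mouse 5, against 1.82 to 2.74 in the other PBMC mice. Mzb1 was at 1.93 (3.72 TPM) in control mouse 5, against 2.74 to 3.07 in the other controls. In PBMC mouse 2, Ighg3 and Ighv10-1 were listed at 0 TPM, at -3.32 on the log2 scale, while the other PBMC mice had Ighg3 at -0.85 to -0.13 and Ighv10-1 at 0.23 to 1.33.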

How the results depend on the processing

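Without a known depth, no floor or counting error could be set for segments near 0 TPM. Labels name mice but no shared cage, day or batch. The number of members called changed most with how many members were tested. With genes above 0 in at least 10 libraries, the calls were 89 for IF against control, 22 for PBMC against IF, 11 for PBMC-hCG against IF, 52 for PBMC-hCG against PBMC, 30 for PBMC against control and 122 for PBMC-hCG against control. With no filter they were 85, 19, 11, 52, 29 and 121 in the same order. Calls by adjusted p numbered 13, 0, 0, 0, 2 and 25. Fitting only the compared groups gave 1 call for PBMC-hCG against IF, 17 for PBMC-hCG against PBMC and 14 for PBMC against control, a pseudocount of 1 gave 1 for PBMC-hCG against IF, and median-of-ratios scaling gave 11 for PBMC against control. Over the fits that left out a mouse, calls ran from 15 to 26, 1 to 12, 1 to 5, 4 to 15, 4 to 12 and 25 to 26 in the order above. Where the sign turned, the cause was not tested. For PBMC against IF, Mzb1 was -0.041 without IF mouse 5 and -0.043 without PBMC mouse 3, in a range of -0.043 to 0.72 over the mice left out. For PBMC-hCG against IF, without IF mouse 1 Igha was 0.25, Igkc 0.51, Jchain 0.32 and Mzb1 0.21, and without PBMC-hCG mouse 2 Igha was 0.11, Igkc 0.14 and Jchain 0.075, while the lowest values, without IF mouse 5, were -1.19, -0.91, -1.13 and -0.55 for Igha, Igkc, Jchain and Mzb1. For PBMC against control, Ighm was 0.082 without control mouse 2, 0.0019 without PBMC mouse 3 and 0.099 without PBMC mouse 5, with a lowest value of -0.14 without PBMC mouse 4. Of 2284 values of single genes under alternatives, 2089 kept direction and side of the threshold, 157 lost the call, 26 gained it and 12 changed sign. Mouse numbers did not pair the samples: deviations of same-numbered mice had a median correlation of -0.0097 over 30 pairs, against 0.0088 over 120 differently numbered pairs. A fit with the number as a replicate block gave 25, 3, 2, 12, 10 and 26 calls. Rescaling moved no library comparison by more than 0.077 on the log2 scale.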
